A study of Mus musculus with 12 samples.

Results

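The clustered protocadherins are cell-surface adhesion proteins encoded by 3 neighbouring gene clusters, alpha, beta and gamma. Members were taken by symbol, as every gene symbol in the libraries' files made of Pcdha, Pcdhb, Pcdhga, Pcdhgb, Pcdhgc or Pcdhac and a number. The rule found 58 of 23329 gene symbols: 14 alpha, 22 beta and 22 gamma members. The alpha cluster held 12 variable members and 2 C-type members (Pcdhac1 and Pcdhac2), and the gamma cluster held 12 members of the A class, 7 of the B class and 3 C-type members (Pcdhgc3, Pcdhgc4 and Pcdhgc5). Each member was listed with 1 transcript, so its transcript count is also its gene count.

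The libraries are hippocampal mRNA of adult C57BL/6 mice, either wild type (WT) or knockout (KO) for NONO, a nuclear protein that binds RNA and DNA. They fall into 4 groups of 3: WT at CT10, KO at CT10, WT at CT22 and KO at CT22, where CT10 and CT22 are given as the titles give them and are not spelled out there. The sources used here do not give how the KO allele was made. No label ties a library to an animal, so the p-values reflect the spread among these samples alone, and that spread may be technical.

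In the alpha and gamma clusters a large first exon of each gene carries its own promoter and encodes the extracellular and transmembrane parts, and it is spliced to small exons that all genes of the cluster share. A neuron uses only some of the promoters of each cluster, a choice that involves DNA looping by CTCF and cohesin and DNA methylation, whereas the C-type genes are used more evenly between neurons. The proteins of neighbouring cells bind like to like, which is known for its part in the self-avoidance of dendrites and axons, in synapse formation and in the survival of interneurons.

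The 58 members span chromosome 18 from 36930285 to 37841872 on the plus strand of mm10, with the alpha cluster at 36930285 to 37187660, the beta cluster at 37264998 to 37521419 and the gamma cluster at 37661945 to 37841872. The 14 alpha members shared small exons at 37156155 to 37156213 and at 37159265 to 37159353. Their last exons overlapped within a stretch of 2715 bases and ended at 37187657 or 37187660. The 22 gamma members shared small exons at 37825021 to 37825079 and at 37833265 to 37833353. Their last exons overlapped within a stretch of 1970 bases and ended between 37841863 and 37841872. Beta members are single-exon genes and share none. Reads in shared exons can come from any member of a cluster and were divided among members by estimation, which makes single alpha and gamma members uncertain. The deposited files give lower and upper bounds of each level, with no statement of their level of confidence. The distance between those bounds, relative to the width of a 95% interval from counting error alone, was 0.989 in beta members, against 1.31 and 1.40 in C-type and variable alpha members and 1.29 to 1.44 in the gamma classes (class medians). Sums over a cluster do not depend on how those reads were divided within it.

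The libraries held 4435606 (KO CT22 replicate 2) to 10911046 counts (WT CT22 replicate 3), of which the members took 4883 to 12792 counts, or 0.109% to 0.127%. Nono stood at 149.97 to 169 CPM, counts scaled to the library total and by TMM, in WT and at no more than 0.672 in KO. The defining hippocampal genes were present in every library, at a summed 578 to 746 CPM in WT libraries and 541 to 722 in KO libraries. Clock genes put 2 KO libraries with the other CT label: Dbp read 33.6 CPM in KO CT10 replicate 3, against 93.7 and 106 CPM in the other two, and 90.9 CPM in KO CT22 replicate 1, against 32.3 and 32.9 CPM. Choroid plexus markers summed to 112 to 1622 CPM in WT libraries and 91.1 to 3815 in KO libraries. All 12 had the higher mean in KO, but few libraries weighed most in these means. Ttr read 3333 CPM in KO CT10 replicate 1 and 3454 CPM in KO CT22 replicate 3. In the other KO libraries it read 54.5 to 443 CPM, against 71.7 to 1505 CPM in WT. Means were also higher in KO for 9 of 10 meningeal, 6 of 6 thalamic, 6 of 7 interneuron, 5 of 6 striatal and 5 of 6 neocortical markers. They were higher for 3 of 4 CA3, 2 of 4 CA1 and 3 of 6 dentate granule cell markers. They were higher for 2 of 5 endothelial, 3 of 8 astrocyte, 1 of 6 oligodendrocyte and 0 of 6 microglial markers. Of all genes tested, 51.8% had a log2 change above 0. In bulk tissue, a different number of cells of a type and a different amount of RNA per cell cannot be told apart.

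Levels were first compared between members per length, in the deposited TPM, which scales transcript counts by length and library. Of the 5 C-type genes, 3 had means above those of all other members, and 2 of these were gamma genes: Pcdhgc5, a gamma C-type protein found at synapses, stood at 129 ± 12.2 TPM, and Pcdhgc3, which is widely expressed in neurons and glia, at 102 ± 9.16 TPM (SD, n = 12). Together with Pcdhgc4, the isoform tied to interneuron survival, at 13.7 ± 2.33 TPM, they held 38.3% of the TPM of the whole family. Pcdhgc5 alone took 27.9% ± 1.82 and Pcdhgc3 21.97% ± 1.48 of the gamma cluster's TPM (SD, n = 12). Among alpha members Pcdhac2, known for its role in the spacing of serotonergic axons, stood at 34.4 ± 4.13 TPM and took 42.0% ± 2.63 of the alpha cluster's TPM. The other alpha C-type member, Pcdhac1, stood at 4.01 ± 0.747 TPM, within the range of the variable alpha members.

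In means over the 12 libraries the variable members all lay below Pcdhac2, although Pcdhga11, at 22.6 to 34.6 TPM, overlapped it, at 25.1 to 39.7 TPM. Gamma A members ran from 6.98 TPM (Pcdhga9) to 26.3 TPM (Pcdhga11), a 3.76-fold range, and together held 25.3% of the family's TPM. Gamma B members ran from 1.15 TPM (Pcdhgb8) to 14.6 TPM (Pcdhgb6) and held 8.93%. Beta members, which lack the shared cytoplasmic part, held 14.7%, with Pcdhb9 at 10.5 ± 0.967 TPM and Pcdhb17 at 8.90 ± 1.54 TPM above the rest, whose means did not exceed 7.57 TPM. Pcdhb9 and Pcdhb17 overlapped across libraries, at 8.41 to 12.6 TPM and 7.12 to 11.5 TPM. Variable alpha members held 6.78%, and the highest of them was Pcdha12 at 7.42 ± 1.197 TPM, followed by Pcdha4 at 5.87 ± 1.43 TPM. Pcdhga9, Pcdhga11, Pcdhgb6 and Pcdhb7 (the beta member at 7.57 TPM) are named here for their place at the edge of a range, after their values were seen.

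At the other end stood Pcdha8 and Pcdhb1. Pcdha8 had 39 counts in all 12 libraries, 31 in WT and 8 in KO, with 2 to 9 per WT library and 0 to 4 per KO library. The authors' deposited table gave Pcdha8 a log2 ratio of -1.16 with an adjusted p-value of 0.676. Pcdhb1 had 8 counts in all, 4 in each genotype, and none in 8 libraries. The limit that a count of 0 allows, 3 counts, was 0.275 to 0.672 CPM by library and covers counting error only. Both fell below the filter on low counts, so the tests of single members covered 56 of the 58.

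**Figure D1:**
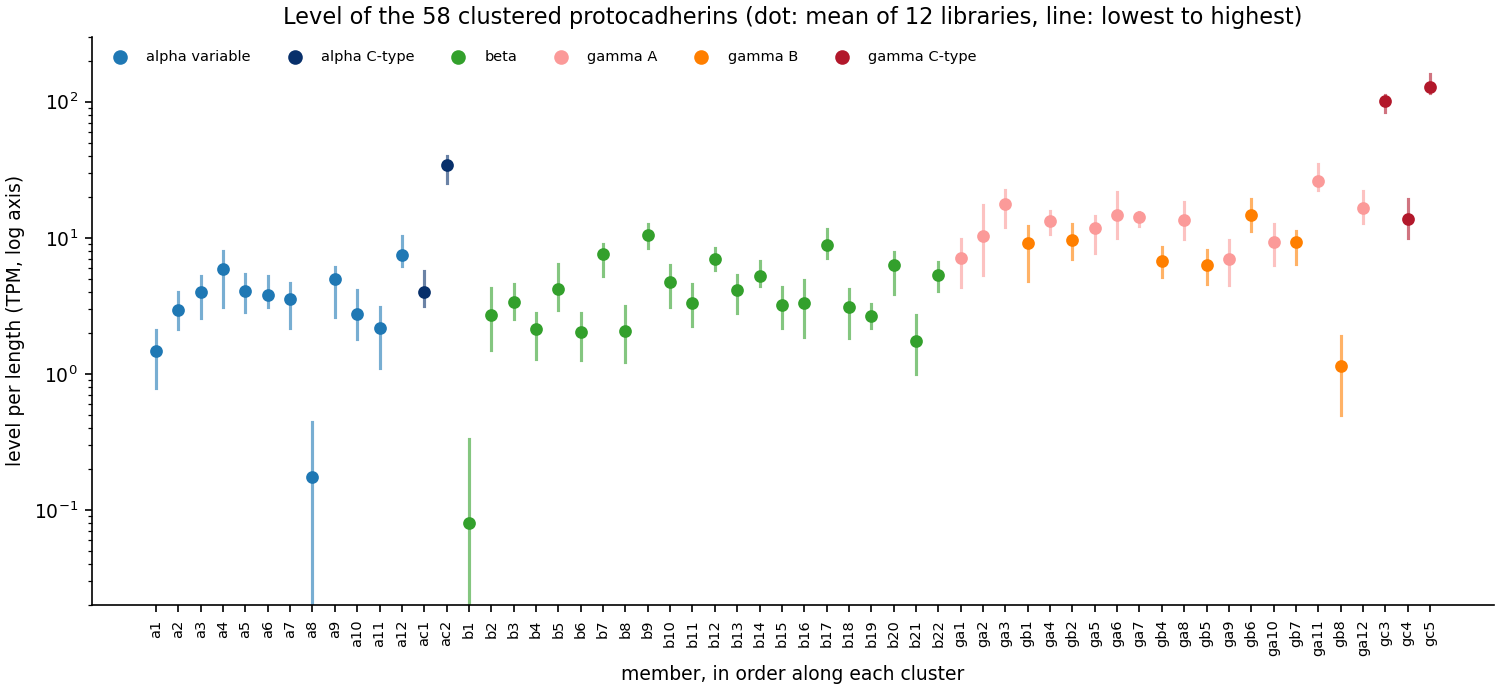
Level per length of the 58 members in TPM (log axis), in order along each cluster, with the symbol's Pcdh left out. Dots are means of 12 libraries and lines run from the lowest to the highest library. Lines that reach the lower edge (a8 and b1) include libraries at 0. Pcdhgc5 (129 TPM), Pcdhgc3 (102 TPM) and Pcdhac2 (34.4 TPM) have the 3 highest means.

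The question of whether loss of NONO goes with a different level of the protocadherin clusters was addressed with the sums, in CPM scaled by TMM. The alpha sum was 189.8, 177 and 178 CPM in WT at CT10, 177, 167 and 173 CPM in KO at CT10, 168, 173 and 150.2 CPM in WT at CT22, and 189.9, 169 and 172 CPM in KO at CT22. The genotypes overlapped, at 173 ± 13.2 CPM in WT against 175 ± 8.11 in KO (SD over 6 libraries each). The log2 change was 0.02, with a 95% interval of -0.10 to 0.14 (edgeR quasi-likelihood test, Benjamini-Hochberg adjusted p = 0.962).

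The beta sum was 134, 129 and 118 CPM in WT at CT10, 129, 114 and 129.6 CPM in KO at CT10, 121, 128 and 113 CPM in WT at CT22, and 142, 123 and 127 CPM in KO at CT22. Here too the genotypes overlapped, at 124 ± 8.03 CPM in WT against 128 ± 9.19 in KO (SD over 6 libraries each). The log2 change was 0.04, with a 95% interval of -0.09 to 0.18 (edgeR adjusted p = 0.927).

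The gamma sum was 881, 885 and 934 CPM in WT at CT10, 889, 835 and 824 CPM in KO at CT10, 845, 870.2 and 823 CPM in WT at CT22, and 949.7, 802 and 830.1 CPM in KO at CT22. The highest and the lowest of the 12 values were both KO libraries at CT22. Means were 873 ± 38.0 CPM in WT against 855 ± 54.5 in KO (SD over 6 libraries each), with a log2 change of -0.03 and a 95% interval of -0.15 to 0.09 (edgeR adjusted p = 0.942). A two-sided exact permutation test of KO against WT gave p = 0.801 for alpha, 0.476 for beta and 0.524 for gamma.

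The intervals bound what these libraries could have missed over both CT labels. For the KO level relative to WT the 95% interval was 0.933-fold to 1.102-fold for alpha. It was 0.940-fold to 1.13-fold for beta and 0.902-fold to 1.07-fold for gamma. The biological coefficient of variation was 7.66% for alpha, 8.14% for beta and 8.58% for gamma. Without the KO libraries whose clock genes matched the other CT label, the alpha and beta log2 changes were -0.013 and -0.0092, and after leaving out from each group the library with most Ttr, a choroid plexus gene, they were -0.013 and -0.0035. The alpha value also turned negative without KO CT22 replicate 1 (-0.011) or WT CT22 replicate 3 (-0.0095).

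**Figure D2:**
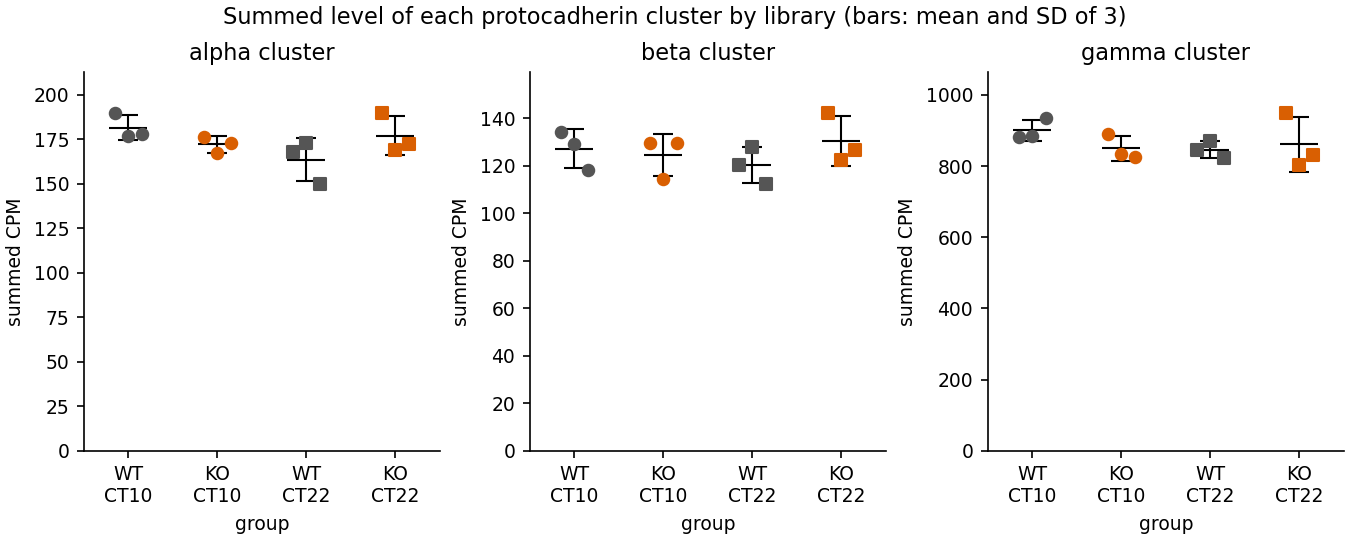
Summed CPM of the alpha, beta and gamma clusters in each of the 12 libraries (grey: WT, orange: KO; circles: CT10, squares: CT22), with the mean and SD of each group of 3. In each cluster the values of WT and KO overlap, and KO CT22 replicate 1 is the highest library (189.9, 142 and 949.7 CPM).

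The sums were also compared within each CT label. At CT10 the log2 change of KO against WT was -0.08 for alpha (95% interval -0.25 to 0.09), -0.03 for beta (-0.22 to 0.16) and -0.08 for gamma (-0.25 to 0.09). At CT22 it was 0.12 for alpha (-0.05 to 0.29), 0.12 for beta (-0.07 to 0.31) and 0.03 for gamma (-0.14 to 0.20). These intervals were wider than those over both labels. The difference between the CT labels in the KO effect was 0.19 for alpha (95% interval -0.05 to 0.43), 0.15 for beta (-0.11 to 0.42) and 0.11 for gamma (-0.13 to 0.35). From CT10 to CT22 the alpha sum differed by -0.15 in WT (95% interval -0.32 to 0.02) and by 0.04 in KO (-0.13 to 0.21). None of the 18 tests of a sum reached the threshold in edgeR, where the lowest adjusted p was 0.589, for alpha at CT22, and none had an unadjusted p under 0.05. DESeq2 called 0 of them as well.

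The classes within the clusters were summed next. None of 36 tests, 6 class sums in 6 comparisons, passed the threshold in edgeR or in DESeq2, and 4 had an unadjusted edgeR p under 0.05: 1 at CT10, 2 for the difference of the KO effects and 1 for CT22 against CT10 in WT, where 3.09%, 6.09% and 6.75% of all genes did. Gamma B genes summed to 112, 114 and 115 CPM in WT at CT10, to 105, 96.1 and 87.2 CPM in KO at CT10, to 97.1, 109 and 94.2 CPM in WT at CT22, and to 101, 103 and 111.5 CPM in KO at CT22. All 3 KO libraries at CT10 thus lay below the 3 WT libraries, by a log2 value of -0.24 (edgeR adjusted p = 1.00), as was so for 5.43% of all genes. At CT22 the groups overlapped (log2 change 0.07), and the difference of the KO effects was 0.32 (edgeR adjusted p = 0.738).

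The alpha C-type sum, carried mostly by Pcdhac2, was 92.5, 88.7 and 85.3 CPM in WT at CT10 and 80.4, 78.8 and 66.2 CPM in WT at CT22. These groups did not overlap (log2 change -0.24, edgeR adjusted p = 0.719), and 8.54% of all genes likewise had every WT library at CT22 below those at CT10. In KO it was 82.6, 76.6 and 85.6 CPM at CT10 and 95.1, 74.2 and 87.5 CPM at CT22, and those groups overlapped. Gamma C-type genes summed to 454 ± 28.1 CPM in WT against 465 ± 33.02 in KO (SD over 6 libraries each), a log2 change of 0.04 with a 95% interval of -0.09 to 0.17. Gamma A genes summed to 312 ± 25.1 CPM in WT against 290 ± 24.5 in KO, a log2 change of -0.11 with a 95% interval of -0.26 to 0.05 (edgeR adjusted p = 0.825).

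Single members were then tested for KO against WT across the CT labels. Of the 56 members tested, 0 passed the threshold in edgeR, against 0.0212% of all 14131 genes tested, and 4 had an unadjusted p under 0.05 (7.14%), against 6.35% of all genes. Of the members, 32 were higher (57.1%, against 51.8% of all genes) and 24 lower in KO (42.9%, against 48.2%). The median log2 change was 0.12 over 13 alpha members, 0.07 over 21 beta members and -0.06 over 22 gamma members, against 0.01 over all genes. No member had all 6 KO libraries below all 6 WT libraries (0.262% of all genes) or above them (0.184%). DESeq2 called 1 member, Pcdhga2 (0.156% of all genes), and the authors' deposited table called the same gene alone among its 57 members with an adjusted p-value (0.186% of all genes there). The authors' deposited table gave 6 of 58 members an unadjusted p-value under 0.05 (10.3%, against 4.06% of all its 23329 genes). Only 15093 of those 23329 genes had an adjusted p-value, against 57 of the 58 members. These shares thus come from unlike sets, and no excess of members can be read from them.

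Pcdhga2 is an A-class gene, next to the start of the gamma cluster. It read 23.8, 18.4 and 29.97 CPM in WT at CT10, 9.52, 14.2 and 13.8 CPM in KO at CT10, 19.7, 32.4 and 19.6 CPM in WT at CT22, and 11.0, 11.7 and 19.8 CPM in KO at CT22. At CT10 the groups did not overlap, and at CT22 2 KO libraries lay below all WT libraries and KO CT22 replicate 3 lay among them. Means were 24.0 ± 5.91 CPM in WT against 13.3 ± 3.62 in KO (SD over 6 libraries each). The log2 change was -0.84 with SE 0.20 and a 95% interval of -1.27 to -0.41, or 0.559-fold (edgeR adjusted p = 0.402).

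DESeq2 gave Pcdhga2 a log2 change of -0.85 with an adjusted p of 0.00913, and the authors' deposited table gave a log2 ratio of -0.846 with an adjusted p-value of 0.00299. Across the alternatives of the edgeR fit the log2 change ran from -1.01, without KO CT22 replicate 3, to -0.70, without WT CT22 replicate 2, with an adjusted p of 0.136 to 0.834 over the fits that left out a library. Without the libraries highest in Ttr it was -0.90, and without the KO libraries whose clock genes matched the other label -0.79. The deposited level was 10.2 to 17.5 TPM in WT and 5.36 to 7.70 TPM in the KO libraries other than KO CT22 replicate 3, which stood at 11.4 TPM with deposited bounds of 9.001 and 13.8 TPM.

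The neighbours of Pcdhga2 also had negative values, without passing the threshold. In gene order the gamma cluster begins with Pcdhga1, Pcdhga2, Pcdhga3 and Pcdhgb1, and their log2 changes were -0.37, -0.84, -0.36 and -0.45. These were the most negative values among the 19 A- and B-class members, and the other 15 lay between -0.19 and 0.29, with 8 lower and 7 higher and a median of -0.05. The run of adjacent genes was noticed after the values were seen, and Pcdhga1 and Pcdhga3 stand outside the naming rule, so the run is given as a description without a test.

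Pcdhga3 read 40.3, 37.2 and 40.5 CPM in WT at CT10, 33.2, 23.6 and 31.0 CPM in KO at CT10, 35.9, 43.2 and 28.6 CPM in WT at CT22, and 31.0, 26.4 and 29.5 CPM in KO at CT22 (log2 change -0.36, SE 0.10, edgeR adjusted p = 0.576). Pcdhgb1, the first B-class gene, read 20.8, 21.8 and 21.4 CPM in WT at CT10, 14.3, 18.2 and 8.51 CPM in KO at CT10, 16.8, 15.04 and 18.2 CPM in WT at CT22, and 12.1, 12.5 and 17.8 CPM in KO at CT22 (log2 change -0.45, SE 0.15, edgeR adjusted p = 0.663). Both had all KO libraries below all WT libraries at CT10 and overlapped at CT22. Pcdhga1 did the same: it read 18.02, 11.8 and 17.2 CPM in WT and 11.2, 8.18 and 10.1 CPM in KO at CT10, against 10.8, 17.8 and 11.5 CPM in WT and 17.0, 10.1 and 9.54 CPM in KO at CT22 (log2 change over both labels -0.37, SE 0.18, edgeR adjusted p = 0.780).

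Summed over the first 4 genes, the level was 78.01 to 109 CPM in the 6 WT libraries and 60.7 to 76.6 CPM in the 6 KO libraries. The other 15 A- and B-class genes summed to 324 ± 18.6 CPM in WT against 323 ± 23.0 in KO (SD over 6 libraries each). The first 4 thus made up 20.5% to 24.7% of these 19 genes' counts in WT libraries and 16.2% to 19.6% in KO libraries. The 4 genes were chosen for being lower in KO. The separation, the level of the other 15 and the shares follow in part from that choice and carry no test. The next gene in the row, Pcdhga4, stood at 23.8 ± 3.85 CPM in WT against 24.2 ± 2.03 in KO (SD over 6 libraries each).

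**Figure D3:**
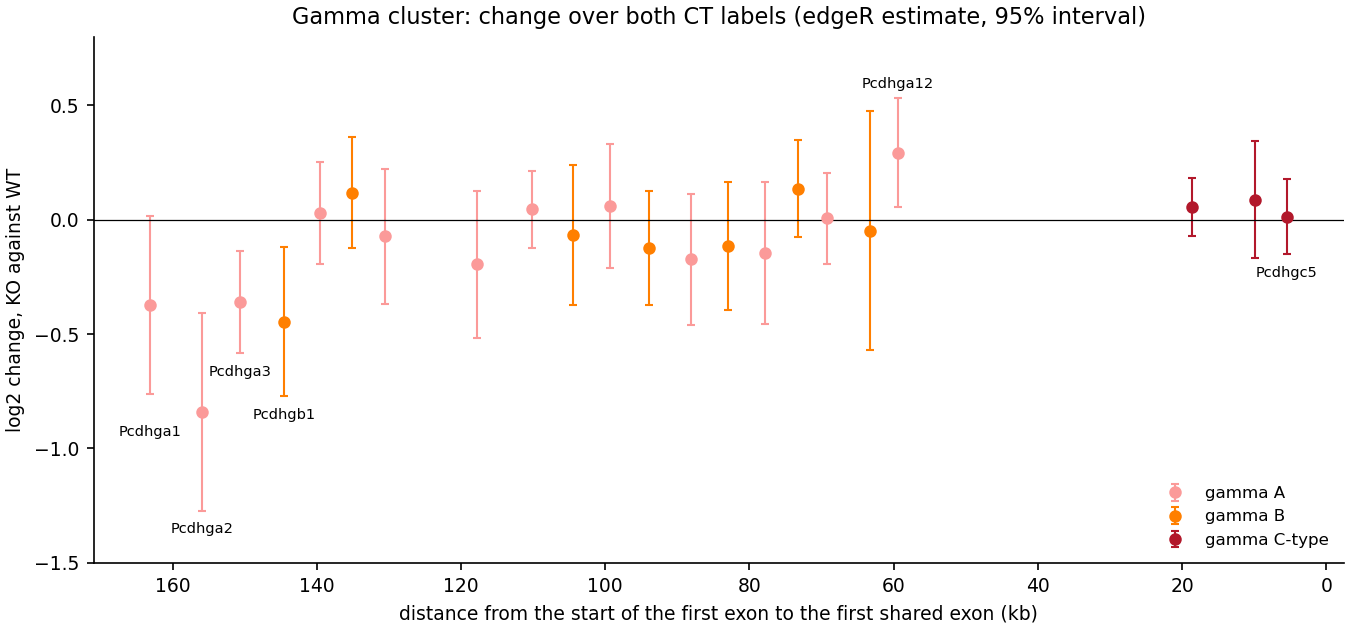
Log2 change of the 22 gamma members, KO against WT over both CT labels, against the distance from the start of each member's first exon to the first exon the cluster shares (edgeR estimates, bars are 95% intervals). The 4 genes farthest from it, 145 to 163 kb away, lie between -0.84 and -0.36, and the other A and B members between -0.19 and 0.29.

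At the other end of the variable gamma genes lies Pcdhga12, with a positive value that did not pass the threshold. It read 27.2, 33.1 and 28.6 CPM in WT at CT10, 38.5, 34.8 and 40.2 CPM in KO at CT10, 30.01, 33.6 and 27.8 CPM in WT at CT22, and 43.3, 38.5 and 25.7 CPM in KO at CT22. All KO libraries except KO CT22 replicate 3, the lowest of the 12, lay above all WT libraries. The log2 change was 0.29 with SE 0.11 (edgeR adjusted p = 0.704). Pcdhgb7, a B-class gene nearby, stood at 16.0 ± 2.67 CPM in WT against 17.5 ± 2.58 in KO (SD over 6 libraries each), a log2 change of 0.14 with a 95% interval of -0.08 to 0.35. Pcdhgb8, the lowest gamma member tested, stood at 2.21 ± 1.05 and 2.04 ± 0.819 CPM.

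**Figure D4:**
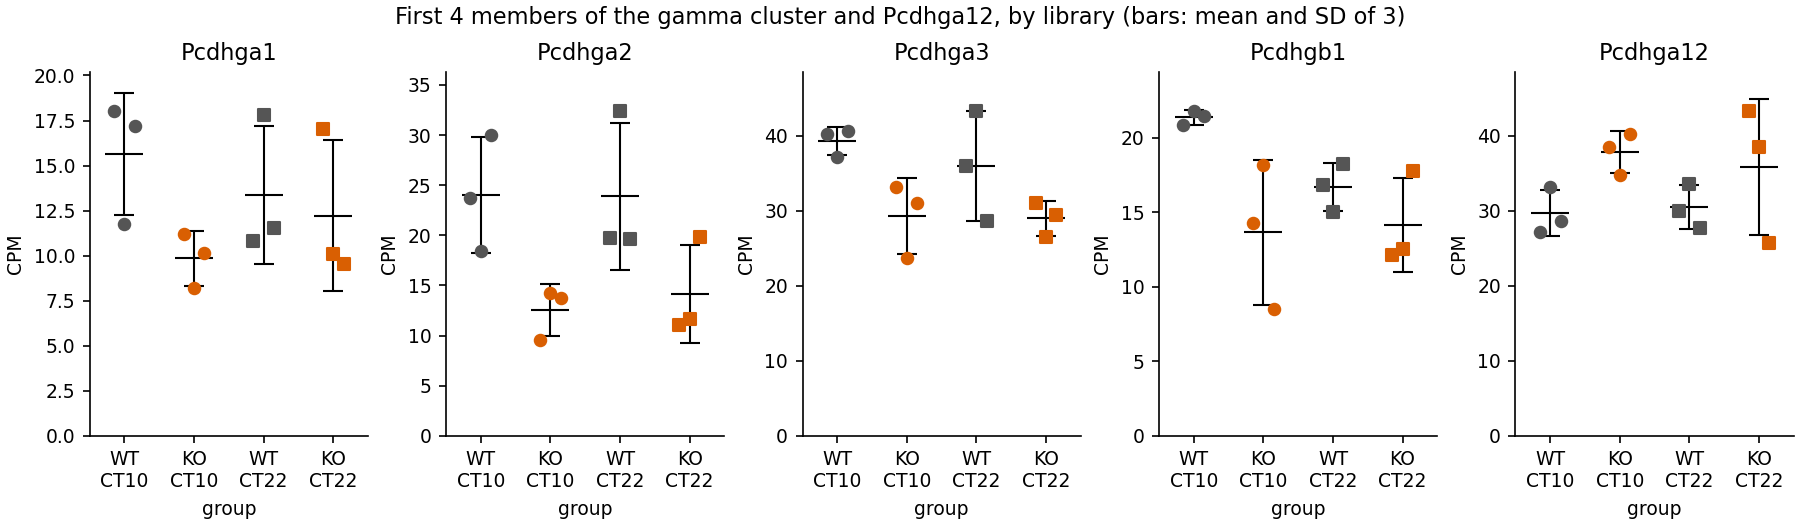
CPM of Pcdhga1, Pcdhga2, Pcdhga3, Pcdhgb1 and Pcdhga12 in each of the 12 libraries (grey: WT, orange: KO; circles: CT10, squares: CT22), with the mean and SD of each group of 3. At CT10 the KO points lie below the WT points for the first 4 genes and above them for Pcdhga12, while at CT22 the genotypes overlap in all 5.

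The C-type members, which held 38.3% (gamma) and 6.00% (alpha) of the family's TPM, had log2 changes between 0.01 and 0.17. Pcdhgc3 was 186 ± 17.1 CPM in WT against 193 ± 7.64 in KO, with a log2 change of 0.06 and a 95% interval of -0.07 to 0.18. Pcdhgc5 was 241 ± 12.9 CPM in WT against 243 ± 30.7 in KO, with a log2 change of 0.01 and an interval of -0.15 to 0.18. Its KO libraries spread from 209 to 289.7 CPM. Pcdhac2 was 74.0 ± 9.15 and 74.7 ± 7.09 CPM (0.02, interval -0.14 to 0.19), Pcdhgc4 26.5 ± 5.66 and 28.2 ± 1.96 CPM (0.09, interval -0.17 to 0.34), and Pcdhac1 7.93 ± 0.806 and 8.95 ± 1.81 CPM (0.17, interval -0.11 to 0.45; SD over 6 libraries each). None of the 5 passed the threshold in edgeR or DESeq2.

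Among variable alpha members, whose shared cytoplasmic part binds the WAVE complex and the kinases FAK and PYK2, none passed the threshold. The most negative value among the 11 tested was that of Pcdha4, 13.8 ± 2.18 CPM in WT against 11.2 ± 3.52 in KO (SD over 6 libraries each), a log2 value of -0.32 with a 95% interval of -0.75 to 0.11. Its lowest KO libraries, at 7.46 and 6.40 CPM, were those in which a related symbol, Pcdha4-g, held most of its counts. That symbol lies outside the rule. Its first exon ends where that of Pcdha4 ends, and its other 3 exons begin where shared gamma exons begin. It had 0 counts in the 6 WT libraries and 9, 31 and 20 counts in 3 KO libraries. Summed with Pcdha4 the level was 13.8 ± 2.18 CPM in WT against 12.4 ± 2.24 in KO, and with it the alpha sum's log2 change was 0.03 in place of 0.02.

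Pcdha6 was 7.29 ± 0.537 CPM in WT against 8.70 ± 1.34 in KO, a log2 change of 0.26 with a 95% interval of -0.0041 to 0.53. Pcdha7 was 7.0004 ± 2.18 and 7.85 ± 0.909 CPM (0.22, interval -0.06 to 0.50) and Pcdha10 6.11 ± 1.86 and 5.54 ± 1.68 CPM (-0.12, interval -0.61 to 0.36). The highest and the lowest variable alpha members tested, Pcdha12 and Pcdha1, had log2 changes of -0.01 and -0.10, with intervals of -0.27 to 0.24 and -0.64 to 0.43.

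Of the beta members, single-exon genes free of the shared-exon uncertainty, 14 of the 21 tested were higher and 7 lower in KO, against 51.8% and 48.2% of all genes, and none had an unadjusted edgeR p under 0.05, against 6.35% of all genes. The largest values in each direction among the beta members tested were those of Pcdhb21, at 1.65 ± 0.556 CPM in WT against 2.08 ± 0.633 in KO (log2 change 0.40, 95% interval -0.14 to 0.94), and Pcdhb19, at 5.31 ± 0.582 and 4.65 ± 0.809 CPM (-0.18, interval -0.47 to 0.11). Pcdhb2 had a log2 change of 0.23 (interval -0.22 to 0.67), Pcdhb9 one of -0.12 (-0.33 to 0.10) and Pcdhb17 one of 0.15 (-0.12 to 0.42).

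The members were then compared within each CT label. At CT10, 0 of 56 members passed the edgeR threshold (0.00708% of all genes), 7 had an unadjusted p under 0.05 (12.5%, against 3.09% of all genes), and 35 were lower (62.5%, against 48.6%) and 21 higher in KO (37.5%, against 51.4%). In 7 members all 3 KO libraries lay below the 3 WT libraries, or 12.5% against 5.43% of all genes: Pcdhga1, Pcdhga2, Pcdhga3, Pcdhgb1, Pcdhga9, Pcdhgb5 and Pcdhb19. In 3, Pcdhb6, Pcdhga12 and Pcdhgc4, they lay above (5.36% against 4.9% of all genes). Alpha and gamma members share read assignments within their cluster, and the percentages given here carry no test. DESeq2 called 0 members at CT10 (0.0212% of all genes).

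At CT22 the balance was the other way, with 38 members higher (67.9%, against 50.6% of all genes) and 18 lower in KO (32.1%, against 49.4%). Again 0 passed the edgeR threshold (0.0142% of all genes) or that of DESeq2 (0.212%), and 4 had an unadjusted p under 0.05 (7.14%, against 10.9% of all genes). No member had all KO libraries below the WT libraries (6.49% of all genes), and 4 had them above (7.14% against 7.24% of all genes): Pcdha6, Pcdha7, Pcdhb5 and Pcdhgb7. Pcdhga9, Pcdhgb5, Pcdhb5 and Pcdhb6 lie outside the naming rule and are named to complete these counts. KO CT22 replicate 1, whose clock genes matched the other label, had the highest sum of every cluster. Without it the gamma sum's log2 change at CT22 was -0.060, while the alpha and beta sums kept their sign. Here too, members of a cluster share read assignments in alpha and gamma, and the percentages carry no test.

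The gap between the labels in the KO effect was wide in Pcdha7 and Pcdhgb7, which in WT were lower at CT22. Pcdha7 read 9.84, 7.71 and 8.96 CPM in WT at CT10 and 4.602, 6.04 and 4.86 CPM in WT at CT22, against 9.07, 6.51 and 7.69 CPM in KO at CT10 and 7.21, 8.29 and 8.34 CPM in KO at CT22. The WT groups did not overlap and the KO groups did. The log2 change from CT10 to CT22 was -0.77 in WT (SE 0.18, edgeR adjusted p = 0.721) and 0.02 in KO. The difference of the KO effects was 0.79 (edgeR adjusted p = 0.736).

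Pcdhgb7 gave similar values: 18.8, 19.1 and 16.3 CPM in WT at CT10, 15.9, 13.7 and 12.4 CPM in WT at CT22, 14.8, 13.6 and 18.9 CPM in KO at CT10, and 19.4, 19.0 and 19.3 CPM in KO at CT22. Its WT libraries at CT22 all lay below those at CT10, and its KO libraries at CT22 all lay above those at CT10. The difference of the KO effects was 0.65 (SE 0.20, edgeR adjusted p = 0.736). Across all 56 members, 0 passed the threshold for that difference in edgeR or in DESeq2, where 0 genes of any kind were called. An unadjusted edgeR p under 0.05 was found in 3 (5.36%, against 6.09% of all genes). These were Pcdha7, Pcdhgb7 and Pcdhgb5, the last with a difference of 0.65 and named to complete the count. The difference was positive in 40 members (71.4%, against 49.9%) and negative in 16 (28.6%, against 50.1%).

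From CT10 to CT22 in WT, 0 members passed the edgeR threshold, nor did any other gene, and 4 had an unadjusted p under 0.05 (7.14%, against 6.75% of all genes). In 9 members the CT22 libraries all lay below the CT10 libraries, or 16.1% against 8.54% of all genes, and in 2 above, or 3.57% against 7.69%. In KO, with 0 members passing the threshold, no member had CT22 below CT10 (3.66% of all genes), 3 had it above (5.36% against 4.3%), and 2 had an unadjusted p under 0.05 (3.57%, against 3.16%). CT22 was lower in 34 members in WT (60.7%, against 50.1% of all genes) and higher in 22 (39.3%, against 49.9%), and in KO it was lower in 20 (35.7%, against 49.9%) and higher in 36 (64.3%, against 50.1%). DESeq2 called 0 members in WT (0.0283% of all genes) and 0 in KO. Pcdhgb8, with only 6 to 35 counts per library, read higher at CT22 under both genotypes without passing the threshold. It read 1.28, 1.87 and 0.881 CPM at CT10 and 2.50, 3.51 and 3.21 CPM at CT22 in WT (log2 change 1.15, SE 0.33, edgeR adjusted p = 0.721). In KO it read 1.36, 1.06 and 1.98 CPM at CT10 and 3.41, 2.24 and 2.17 CPM at CT22 (0.84, SE 0.35, edgeR adjusted p = 0.977). Each comparison within a label or within KO includes a library whose clock genes matched the other label.

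**Figure D5:**
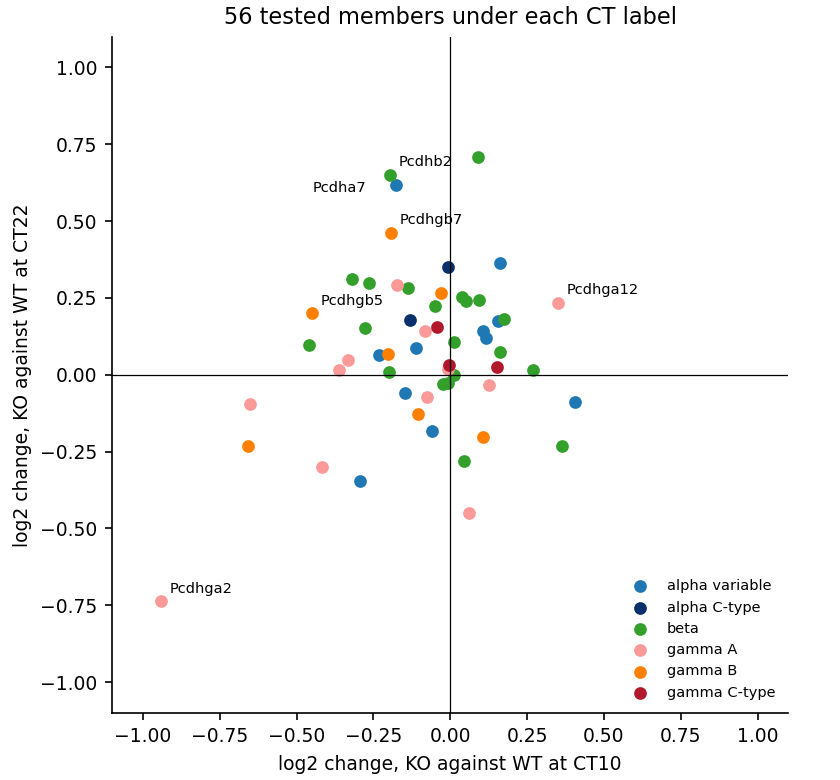
Log2 change of KO against WT at CT10 (horizontal) and at CT22 (vertical) for the 56 members tested, coloured by class. Pcdhga2 is the lowest under both labels (-0.94 and -0.74), Pcdhga12 is above 0 under both (0.35 and 0.23), and Pcdha7 and Pcdhgb7 are below 0 at CT10 and above 0 at CT22.

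Genes that act with the family were described from lists. Of 22 factors of looping, cohesin loading, DNA methylation and promoter choice, 0 passed the threshold in KO against WT over both CT labels and 0 had an unadjusted p under 0.05. All 22 had a log2 change above 0, against 51.8% of all genes, with a median of 0.10 against 0.01. Without the libraries highest in Ttr the count was 15 of 22 with a median of 0.03. With all libraries it was 11 of 22 at CT10, against 51.4% of all genes, and 22 of 22 at CT22, against 50.6%. At CT10 1 of the 22 had an unadjusted edgeR p under 0.05, against 3.09% of all genes. At CT22 4 of the 22 did, against 10.9%, and 0 passed the threshold under either label. Over both labels the largest value was that of the methyltransferase gene Dnmt3b, 0.54 (edgeR adjusted p = 0.814) at 0.881 CPM in WT. Ctcf, which encodes the looping factor at the variable promoters, stood at 69.1 ± 5.33 CPM in WT against 70.2 ± 2.44 in KO (SD over 6 libraries each), a log2 change of 0.03.

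The 10 delta protocadherins, related adhesion genes outside the clusters, all had a log2 change above 0 over both labels, against 51.8% of all genes, with a median of 0.14, and 0 passed the threshold. At CT10 6 of 10 were above 0, against 51.4% of all genes, with a median of 0.02. At CT22 all 10 were above 0, against 50.6%, with a median of 0.27. An unadjusted edgeR p under 0.05 was found in 0 of them at CT10 (3.09% of all genes) and in 4 at CT22 (10.9%). Over both labels Pcdh9 had an unadjusted edgeR p under 0.05 (log2 change 0.18, edgeR adjusted p = 0.704), and the largest value was that of Pcdh11x, 0.25. Without the libraries highest in Ttr, 7 of 10 were above 0, with a median of 0.05. Of 21 signalling and cleavage partners in the files, such as the WAVE complex, FAK and PYK2 kinases and gamma-secretase, 13 were higher and 8 lower, against 51.8% and 48.2% of all genes, with a median of 0.03, and 0 passed the threshold. At CT10 the counts were 6 higher and 15 lower, against 51.4% and 48.6% of all genes. At CT22 they were 11 higher and 10 lower, against 50.6% and 49.4%. An unadjusted edgeR p under 0.05 was found in 1 partner at CT10 (3.09% of all genes) and in 2 at CT22 (10.9%). Marcks, whose product is a target of gamma protocadherin signalling, had the largest change over both labels, 0.15 (edgeR adjusted p = 0.728). The members and these lists were chosen with earlier results of these data known.

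After the group means were removed, the alpha and beta sums varied together over the 12 libraries (r = 0.860), the alpha and gamma sums less so (0.660) and the beta and gamma sums less again (0.519), in libraries that share their depth and scaling. Among 10164 genes with a mean of at least 10 CPM, the one most like the beta sum was Rgs7bp (r = 0.975), the one most like the alpha sum 1810013L24Rik (0.938) and the one most like the gamma sum Ncan (0.949). These correlations are a description over 12 libraries with 8 residual degrees of freedom.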

How the data were processed

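Per the labels' protocols, hippocampal RNA was made into stranded mRNA libraries and read on an Illumina HiSeq, with both paired-end and single-end reads named and neither assigned to a library. The submitters' processing notes name the build mm10 and the tools RSEM 1.2.5, TopHat 1.3.3, edgeR 3.0.6 and FastQC, with no role or order. Per the file headers, the authors deposited for every transcript of a library an estimated count (often fractional), a TPM and an expression signal with lower and upper bounds of unstated level. One table by the authors, per its deposited header, gives a log2 ratio, a p-value, an adjusted p-value and 12 columns of normalised signal, and 0 of its sample columns were left unmatched. Coordinates are those of the deposited files. Bounds were put on the TPM scale by dividing by the library's summed expression signal. Use of strand in counting is not stated in the sources at hand.

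Groups and replicate numbers come from the sample titles. Estimated counts were summed per gene symbol and rounded. Tests used edgeR 4.0.16 in R 4.3.3: filterByExpr with a minimum count of 10, TMM factors of 0.979 to 1.021, and a quasi-likelihood fit, robust, of 4 group means to the 12 libraries (8 residual degrees of freedom, common dispersion 0.0151). Adjustment by Benjamini-Hochberg ran over all 14131 genes tested, or over 14078 and 14081 features where the members were replaced by cluster or class sums, at a threshold of 0.05. Standard errors and 95% intervals were taken from the quasi-likelihood F statistic. Alternatives were RLE size factors, no filter, DESeq2 1.42.0, a replicate block, fits of single genotypes or CT labels, genotype without the CT label, and leaving out each library; leaving out the libraries out of place by clock genes or highest in Ttr, and adding Pcdha4-g to the alpha sum, were chosen after seeing the data. The procedure was tested on simulated data. Replicates of a group differed by more than counting error in every pair, so none was treated as a library deposited again.

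Members were named if they were C-type, past the threshold, highest (2) or lowest (1) per cluster in level per length, or among the 2 largest changes in each direction per cluster; each list's largest change was named too, and other names are marked as chosen after their values were seen. The members and lists were chosen with earlier results of these data known. No sequence of the members is printed. Library totals of 4435606 to 10911046 counts set the precision, and limits at 0 counts cover counting error only.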

Additional observations from a re-analysis of the deposited data

Results flagged for a closer look

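Among the 6 libraries of each genotype, the sums and named members were checked for a library far from the others, in 62 groups, of which 5 stood out. Chance alone gives about 1 in 20. Pcdhgc4 read 37.4 CPM in WT CT22 replicate 1, against 26.3 CPM in the next WT library. Pcdha12 read 21.5 CPM in WT CT10 replicate 2, against 15.8 CPM in the next. Pcdhb17 read 13.4 CPM in WT CT10 replicate 1, against 11.1 CPM in the next. Pcdhga1 read 17.0 CPM in KO CT22 replicate 1, against 11.2 CPM in the next KO library. Pcdhb9 read 9.79 CPM in KO CT22 replicate 3, against 12.2 CPM in the next lowest.

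Signal also appeared in a symbol that the comparisons do not use. Pcdha4-g, listed with a first exon like that of Pcdha4 and later exons like the shared gamma exons, had 9 counts in KO CT10 replicate 1, 31 in KO CT10 replicate 3 and 20 in KO CT22 replicate 3, and 0 counts in the 6 WT libraries and the other 3 KO libraries. The counts are estimates divided among transcripts with shared exons, and whether such a transcript was present was not tested.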

How the results depend on the processing

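Across the alternatives run, no cluster sum, class sum or member passed the edgeR threshold. DESeq2 called 1 member over both CT labels, Pcdhga2 (log2 change -0.85, adjusted p = 0.00913), and 0 in the other comparisons. The replicate block was fitted although no label says that the numbers pair the samples. Correlations ran from -0.237 to 0.328 between same-numbered libraries and from -0.295 to 0.287 between differently numbered ones. The block gave log2 changes of 0.02 for alpha, 0.04 for beta and -0.03 for gamma, -0.85 for Pcdhga2, and 0 members called. Small values changed sign under some alternatives, and the cause was not tested. Without the KO libraries with clock genes of the other CT label, the KO effect over both labels was -0.013 for the alpha sum, -0.0092 for the beta sum, -0.028 for alpha C-type genes, -0.041 for Pcdhac2, -0.056 for Pcdhgc5 and 0.0047 for Pcdha12. Under that setting it was -0.058 for the gamma sum at CT22, and CT22 against CT10 in KO was -0.0078 for alpha and -0.077 for gamma. Without the libraries highest in Ttr, it was -0.013 for alpha, -0.0035 for beta, -0.028 for alpha C-type genes, -0.055 for Pcdhac2, -0.031 for Pcdhgc4 and 0.11 for Pcdha10. Leaving out each library gave ranges over both labels of -0.011 to 0.040 for alpha, -0.011 to 0.032 for variable alpha genes, -0.0090 to 0.079 for alpha C-type genes, -0.013 to 0.060 for gamma C-type genes, -0.31 to 0.036 for Pcdha10, -0.085 to 0.099 for Pcdha12, -0.027 to 0.069 for Pcdhac2, -0.19 to 0.12 for Pcdhgb8 and -0.076 to 0.055 for Pcdhgc5. At CT10 the beta sum ranged from -0.081 to 0.024, and at CT22 the gamma sum from -0.060 to 0.073. CT22 against CT10 in KO ranged from -0.017 to 0.073 for alpha, -0.0032 to 0.11 for beta and -0.062 to 0.067 for gamma. The shallowest library, KO CT22 replicate 2, limits members of a few CPM most.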
